A study of Homo sapiens with 12 samples.

Results

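Transcripts of LNCaP cells depleted of USP22 by an shRNA (3 libraries) were compared with those of a vector control (3 libraries), 6 of the 12 libraries of the study. The 3 libraries of a control shRNA served as a second reference. LNCaP is a human prostate cancer line that responds to androgen. Every gene that passed a filter on low counts was described, 26076 of 63677 in the count table, and each was asked whether its level after depletion lay outside both controls or between them. The vector control carried pLPLUC, and the labels give it no drug. The control shRNA line and the depletion line (LN-shUSP22) were both given doxycycline (1 ug/mL, renewed each 48 hours) over 5 days, a drug that the labels state for shRNA cells alone. All 3 groups came from LNCaP and were kept in medium with hormone. The labels name a single shRNA against USP22 and do not say whether a line was a clone or a pool. Depletion and vector control therefore differ in USP22, in the shRNA construct and in doxycycline, and in that comparison the 3 cannot be told apart. Levels are in CPM, read counts scaled to a common library size, a value ± another is a mean ± SD (n = 3), and "called" means an adjusted p under 0.05 in edgeR's quasi-likelihood test.

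USP22 is a ubiquitin protease of SAGA, a coactivator complex that is recruited to promoters by transcription factors. Within the deubiquitinase module of SAGA, together with ATXN7, ATXN7L3 and ENY2, it removes ubiquitin from histones, and it has also been described as acting on other proteins. In prostate cancer cells USP22 is known as a partner of androgen-driven and MYC dependent transcription.

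Counted reads ranged from 77607469 to 103690001 for each library. Whether replicates came from separate cultures is not in the labels, and p-values therefore measure only the spread among these samples, which can be technical. The third vector control stood apart. Its SD from the other libraries of its group was 0.346 in log2 units, where the other vector controls had 0.203 and 0.209 and the 6 libraries with an shRNA had 0.113 to 0.166. All 14 markers of LNCaP and luminal prostate cells were above 1 CPM, and their summed level was 6368 to 6897 CPM after depletion, 6637 to 6743 CPM in vector controls and 8257 to 8555 CPM in shRNA controls. Of 10 immune, 12 basal, 10 fibroblast or smooth muscle and 8 endothelial markers, 9, 9, 5 and 6 stayed below 1 CPM in all 9 libraries. In bulk RNA, fewer cells of a kind and less RNA per cell cannot be told apart.

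USP22 (ENSG00000124422) was lowest in the depleted cells. USP22 had 482, 491 and 565 CPM in vector control cells, 479.6, 473 and 479.7 CPM with the control shRNA and 257, 265 and 251 CPM after depletion. The depletion libraries did not overlap either control, and USP22 fell to 0.503 of the vector control (log2 fold change -0.99, SE 0.06, edgeR adjusted p = 6.39e-09) and 0.539 of the shRNA control. For USP22 alone, permuting the 6 labels exactly (two-sided) gave p = 0.1, the smallest this design allows. Among the 6 other tested genes of the deubiquitinase module, 0 were higher and 2 lower than in the vector control by edgeR at an adjusted p under 0.05, USP51 and ATXN7L2, and neither passed against the shRNA control (edgeR adjusted p = 0.101 and 0.504). Both calls were lost in several reruns that left out a library: edgeR adjusted p rose to as much as 0.114 for USP51 and 0.098 for ATXN7L2 without depletion replicate 1.

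Against the vector control, 9081 of 26076 genes were called (34.8%), 4228 higher (16.2%) and 4853 lower (18.6%) after depletion. At least 2-fold, 1459 were higher (5.6%) and 748 lower (2.87%). Where these genes lay relative to the second control was read from the contrast of depletion with the shRNA control, which called 5172 genes (19.8%), 2450 higher (9.4%) and 2722 lower (10.4%). The control shRNA cells differed from the vector control at 11211 genes (43%). These comparisons share libraries, so they are given side by side and no overlap between them is read as evidence.

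Most genes called against the vector control were not called against the shRNA control: 6051 (23.2%). A smaller set lay outside both controls, called against each in the same direction: 1381 genes (5.3%), of which 457 were higher (1.75%) and 924 lower (3.54%) than in both. At least 2-fold from each, 70 were higher (0.268%) and 225 lower (0.863%). A set of similar size lay between the controls, called against both in opposite directions: 1649 genes (6.32%), with 636 above the vector control and below the shRNA control (2.44%) and 1013 the reverse (3.88%). At least 2-fold from each the order turned, with 54 above and 10 below the vector control. A further 2142 genes (8.21%) were called against the shRNA control alone, and 14853 (57%) against neither. A difference called against one control and not against the other is not by itself a difference between the controls. Vector control replicate 3 weighs on these numbers: without it 2147 genes were outside (799 higher, 1348 lower, 1311 of the 1381 among them) and 3096 between (1306 above and 1790 below the vector control, 1603 of the 1649 among them). Without depletion replicate 1 the between set was 1041.

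By the libraries alone, with no test, the 3 depletion libraries lay above all 6 control libraries for 1302 genes (4.99%) and below all 6 for 1686 (6.47%), and they lay wholly between the control groups for 3128 (12%), 1382 above the vector control (5.3%) and 1746 below it (6.7%). Of the called sets, 450 of 457 higher and 886 of 924 lower genes also had depletion libraries beyond all 6 controls, and 609 of 636 and 957 of 1013 between genes had libraries that did not overlap. The controls themselves could differ for genes outside both. Of the 924 lower genes, the shRNA control was called higher than the vector control for 143, lower for 251 and not called for 530. Of the 457 higher genes these counts were 156, 38 and 263.

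**Figure D1:**
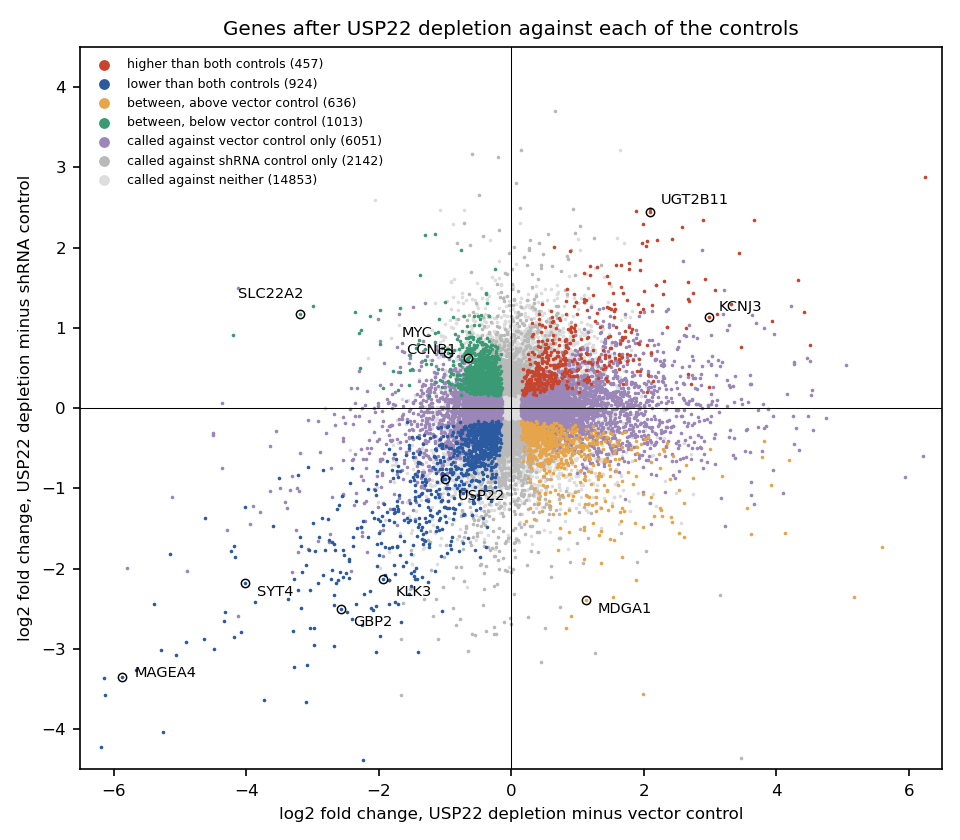
Each point is 1 of 26076 tested genes, placed by its log2 fold change after depletion against the vector control (horizontal) and against the shRNA control (vertical), and coloured by whether it was called against both, one or neither. The 457 and 924 genes outside both controls lie in the upper right and lower left, the 636 and 1013 genes between them in the lower right and upper left, and 34 genes lie beyond the axes.

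Genes higher than both controls included UDP-glucuronosyltransferases of the UGT2B family, which attach glucuronic acid to androgens and other lipophilic molecules. UGT2B11 had 29.6, 32.1 and 25.6 CPM in vector control cells, 21.8, 23.1 and 23.5 CPM with the control shRNA and 128, 125 and 119 CPM after depletion. All 3 depletion libraries were far above all 6 controls (4.27-fold over the vector control, edgeR adjusted p = 9e-12). All 7 tested members were higher than in the shRNA control, where 9.4% of all tested genes were, and 4 lay above both controls, where 1.75% did: UGT2B11, UGT2B4 (4.15-fold over the vector control), UGT2B28 (3.14-fold) and UGT2B10 (1.85-fold), with edgeR adjusted p from 9e-12 to 1.38e-06. The main androgen-conjugating members did otherwise. UGT2B17 had 189, 175 and 173 CPM in vector control cells, 56.5, 60.3 and 60.7 CPM with the control shRNA and 117, 127 and 119.8 CPM after depletion. UGT2B17 thus lay between the controls (log2 fold change -0.56 against the vector control and 1.03 against the shRNA control, edgeR adjusted p = 1.72e-06 and 5.18e-09). UGT2B15 had 185, 176 and 151 CPM in vector control cells, 41, 44.3 and 44.2 CPM with the control shRNA and 138, 151 and 140.3 CPM after depletion. For UGT2B15 the depletion libraries reached into the range of the vector control (log2 fold change -0.25, edgeR adjusted p = 0.0143), and that call was lost without depletion replicate 1 or 3 or vector control replicate 1 (adjusted p = 0.107, 0.0885 and 0.0711). These paralogs are close in sequence, and reads may be assigned to the wrong member.

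KCNJ3, RALYL and SLITRK6 were among the larger rises. KCNJ3, a subunit of an inwardly rectifying potassium channel, had 12.3 ± 1.47 CPM in vector control cells, 44.2 ± 4.54 CPM with the control shRNA and 96.8 ± 1.96 CPM after depletion, a rise of 7.88-fold and 2.19-fold. RALYL, an RNA-binding protein, had 6.5 ± 0.998, 14 ± 0.692 and 41.4 ± 0.8 CPM in the same order, and SLITRK6, a neuronal transmembrane protein, 6 ± 1.48, 10.1 ± 0.666 and 23.2 ± 0.5 CPM. For all 3 the shRNA control was itself called above the vector control, with log2 differences from 0.75 to 1.85.

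FUCA2, F5, HLF and ETV1 were also higher than both controls. FUCA2 had 2.96, 2.97 and 3.44 CPM in vector control cells, 7.79, 8.02 and 7.42 CPM with the control shRNA and 23.2, 25.6 and 22.1 CPM after depletion. FUCA2, a secreted fucosidase, was 7.58-fold over the vector control and 3.05-fold over the shRNA control (edgeR adjusted p = 2.37e-12 and 2.18e-09). F5, coagulation factor V, was 3.99-fold and HLF, a transcription factor of the PAR bZIP family, 2.96-fold over the vector control. Their depletion libraries, 30.6, 30.5 and 32.2 CPM for F5 and 32.9, 33.6 and 31.6 CPM for HLF, were all above the 6 control libraries, whose highest values were 12.4 and 14.1 CPM. ETV1, an ETS factor that is rearranged in LNCaP cells, had 221, 226 and 177 CPM in vector control cells, 277, 279.5 and 255 CPM with the control shRNA and 351, 351 and 322 CPM after depletion (edgeR adjusted p = 3.98e-06 and 0.00691).

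**Figure D2:**
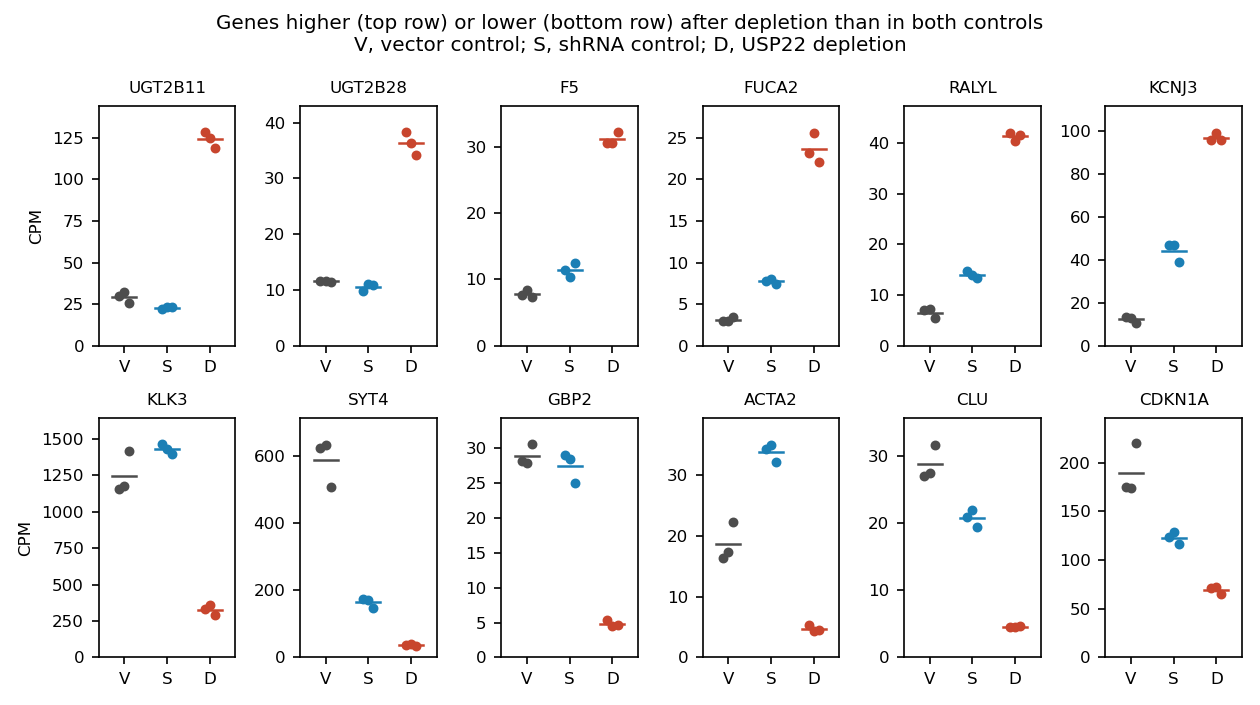
CPM on a linear axis from 0 in each library (points; V vector control, S shRNA control, D USP22 depletion) with the group mean (line) for 12 genes outside both controls. The depletion points lie above both controls in the top row and below both in the bottom row, and the controls themselves differ for genes such as SYT4, ACTA2 and KCNJ3.

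Among genes lower than both controls was KLK3, which encodes prostate-specific antigen and is a classical androgen-induced gene. KLK3 had 1155, 1172 and 1413 CPM in vector control cells, 1464, 1426 and 1394 CPM with the control shRNA and 330.4, 358 and 290.4 CPM after depletion. No depletion library came near a control library, and KLK3 fell to 0.262 of the vector control (edgeR adjusted p = 6.38e-11, log2 fold change -1.93 with SE 0.08).

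Androgen-responsive genes were mostly lower than in the shRNA control and went both ways against the vector control. Of 35 tested genes 24 were lower and 3 higher than in the shRNA control (median log2 fold change -0.34), where 10.4% and 9.4% of all tested genes were. Against the vector control 14 were lower and 6 higher (median -0.12), where 18.6% and 16.2% of all tested genes were. Against both controls 12 were lower, where 3.54% of all tested genes were. TRPM8, a cation channel, was among them (40.3 ± 2.05, 19.7 ± 0.961 and 5.74 ± 0.464 CPM in vector control, shRNA control and depletion). So were PGC, an aspartic protease (0.361 of the vector control), and HERC3, a ubiquitin ligase (0.579). RHOU and NDRG1 were also in this set (log2 fold change -0.57 and -0.36). Another 10 were called against the shRNA control alone, where 8.21% of all tested genes were. These include KLK2, a kallikrein close to KLK3 in sequence, so that reads may be split between KLK2 and KLK3. KLK2 had 287, 303 and 357 CPM in vector control cells, 589.8, 561 and 539 CPM with the control shRNA and 342, 369 and 321 CPM after depletion. The KLK2 level after depletion overlapped the vector control and lay below the shRNA control. TMPRSS2, a membrane serine protease driven by androgens, went the other way against the vector control. TMPRSS2 had 265, 272 and 308 CPM in vector control cells, 833, 774 and 758 CPM with the control shRNA and 576, 627 and 523 CPM after depletion. TMPRSS2 was 2.04-fold over the vector control and 0.73 of the shRNA control (edgeR adjusted p = 2.41e-08 and 0.000275), with no overlap between groups.

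Of 13 luminal lineage transcription factors 3 lay below both controls, GATA2, GRHL2 and SPDEF, where 3.54% of all tested genes did. Above both controls lay 1, ETV1, where 1.75% of all tested genes did. Against the vector control 5 were lower and 2 higher, where 18.6% and 16.2% of all tested genes were. The number lower was 3 without depletion replicate 1 or 3 or any 1 shRNA control. Without vector control replicate 2, 1 was higher. GATA2, a zinc finger factor of the luminal lineage, had 149, 149 and 154 CPM after depletion and 189 CPM or more in every control library (edgeR adjusted p = 0.000246 and 2.42e-05). GRHL2 lost its call against the vector control in a fit of just the 6 libraries (edgeR adjusted p = 0.0678). SPDEF lost it without vector control replicate 3, depletion replicate 1 or 3 or any 1 shRNA control (edgeR adjusted p from 0.0677 to 0.189), and against the shRNA control without depletion replicate 1 or 3 or shRNA control replicate 1 or 2 (adjusted p from 0.0641 to 0.103). SOX9 was 0.196 of the vector control but not called against the shRNA control (0.86 ± 0.043 and 0.804 ± 0.0391 CPM, edgeR adjusted p = 0.699).

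Contractile genes and targets of SRF and YAP, among them genes of actin, myosin and proteins that bind these, lay mostly below both controls. Of 23 tested genes 16 were lower and 0 higher than in the vector control (median log2 fold change -0.64), where 18.6% and 16.2% of all tested genes were. Lower than both controls were 14, where 3.54% of all tested genes were (16 of 23 without vector control replicate 3). ACTA2 had 16.3, 17.3 and 22.2 CPM in vector control cells, 34.2, 35 and 32.2 CPM with the control shRNA and 5.28, 4.41 and 4.46 CPM after depletion. ACTA2, smooth muscle actin, was higher in the shRNA control than in the vector control, and its depletion libraries lay below both with no overlap (log2 fold change -1.98 and -2.84, edgeR adjusted p = 1.45e-09 and 1.54e-10). MYL9, a myosin light chain, had 3.08 ± 0.242, 4.56 ± 0.562 and 0.359 ± 0.0192 CPM in the vector control, shRNA control and depletion. Abundant members moved too: FLNA, the actin crosslinker filamin A, fell to 0.595, MYH9, a nonmuscle myosin heavy chain, to 0.643, and TPM4, a tropomyosin, to 0.545 of the vector control. FLNA had 607, 639 and 841 CPM in vector control cells, 862, 822 and 823 CPM with the control shRNA and 429.6, 405 and 407 CPM after depletion. TMSB4X, the actin monomer binder thymosin beta 4, was in the same position (30 ± 2.19, 24 ± 1.59 and 5.51 ± 0.283 CPM). Summed markers of fibroblasts and smooth muscle, ACTA2 included, were at most 24.2 CPM after depletion, 28.2 to 37.6 CPM in vector controls and 51.7 to 53.6 CPM in shRNA controls, with 5 of 10 below 1 CPM in every library, and their part in this result was not tested.

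The deepest falls against the vector control were also outside the shRNA control, which stood partway. MAGEA4, a cancer-testis antigen, had 13.1 ± 0.57 CPM in vector control cells, 2.28 ± 0.434 CPM with the control shRNA and 0.224 ± 0.0347 CPM after depletion (log2 fold change -5.87, SE 0.17, edgeR adjusted p = 7.62e-13). SYT4 had 625, 631 and 508 CPM in vector control cells, 174, 171 and 148 CPM with the control shRNA and 35.6, 39.4 and 33.7 CPM after depletion. SYT4, a synaptotagmin of dense core vesicles, fell by 4.02 on the log2 scale. DDC, the aromatic amino acid decarboxylase, fell by 4.17. Both belong to the neuroendocrine list, of whose 9 tested members 2 were lower and 3 higher than in the vector control, where 18.6% and 16.2% of all tested genes were. Without depletion replicate 3 only 1 was higher. DSC3, a desmosomal cadherin, went from 69.3 ± 8.18 to 3.7 ± 0.195 CPM, and DPP4, a cell surface peptidase, from 50.9 ± 3.9 to 2.79 ± 0.333 CPM. DAPK1, a death-associated protein kinase, went from 23.1 ± 1.42 to 1.03 ± 0.252 CPM. In these 6 genes the log2 fold change of the shRNA control over the vector control was -2.52 to -1.47, and that of depletion over the shRNA control -3.35 to -1.72. CLU, the secreted chaperone clusterin, differed less between controls (-0.47) and went from 28.8 ± 2.58 to 4.58 ± 0.0835 CPM. ZNF608, a zinc finger protein, was not called between the controls (edgeR adjusted p = 0.58) and fell to 0.197 of the vector control and 0.185 of the shRNA control.

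CDKN1A, the cyclin-dependent kinase inhibitor p21, lay below both controls. CDKN1A had 175, 174 and 220.1 CPM in vector control cells, 123, 129 and 116.4 CPM with the control shRNA and 70.8, 72.2 and 64.6 CPM after depletion. The 3 depletion libraries were below all 6 controls (log2 fold change -1.45 and -0.83, edgeR adjusted p = 2.27e-09 and 2.76e-06). GDF15, a stress-induced cytokine, had 125 ± 19.6, 49.8 ± 2.47 and 80.5 ± 3.52 CPM in vector control, shRNA control and depletion. DDB2, a damage sensor of nucleotide excision repair, had the same order, 37.1 ± 2.39, 14.7 ± 0.157 and 24.7 ± 1.97 CPM, and both lay between the controls. FAS, a death receptor, was not called against the shRNA control (edgeR adjusted p = 0.251) and was 0.351 of the vector control.

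Genes of the cell cycle lay between the controls, below the vector control and above the shRNA control. Of 53 tested genes of G2 and mitosis 46 were lower than in the vector control and 0 higher (median log2 fold change -0.41), where 18.6% and 16.2% of all tested genes were. Higher than in the shRNA control were 50, with a median of 0.57, where 9.4% of all tested genes were. Between the controls by both tests were 43 of 53, where 3.88% of all tested genes lay on that side. Without vector control replicate 3 this was all 53. Over reruns with other filters, methods or library sets, 34 to 53 were lower than in the vector control and 0 higher. By library, the median over the list was -0.40, -0.32 and -0.43 after depletion and -1.03, -0.90 and -0.91 in the shRNA control, each as a log2 difference from the vector control mean. CCNB1 had 246, 237 and 249 CPM in vector control cells, 96.3, 105 and 101 CPM with the control shRNA and 155, 167 and 146 CPM after depletion. CCNB1, the mitotic cyclin B1, showed 3 separate levels (log2 fold change -0.65 and 0.63, edgeR adjusted p = 5.17e-07 and 1.8e-06). NDC80, a kinetochore protein, had 74.4 ± 3.51, 33.5 ± 0.634 and 47.6 ± 2.48 CPM in the same order. MKI67, the proliferation antigen, lay closer to the vector control (271 ± 3.09 against 229 ± 9 CPM), and its edgeR adjusted p of 0.0086 became 0.0677 without depletion replicate 1.

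Many promoters of mitotic genes hold TTTGAA, the core of the element called CHR, often beside CCAAT boxes. The windows of CCNB2, cyclin B2, and CDC25C, a phosphatase that activates CDK1, are shown because both genes lay between the controls and hold the element close to their start (chr15:59104896-59105145, plus strand, and chr5:138331805-138332054, minus strand, GRCh38.p14, RefSeq). Each run is the 250 bases before an annotated start, 5′ to 3′, with TTTGAA in capitals, whose first base is 29 bases before the start in CCNB2 and 30 in CDC25C. Both genes and windows were chosen after their values were seen. CDC25C has 4 listed starts, and the window shown is the one whose match lies nearest to its start.
CCNB2: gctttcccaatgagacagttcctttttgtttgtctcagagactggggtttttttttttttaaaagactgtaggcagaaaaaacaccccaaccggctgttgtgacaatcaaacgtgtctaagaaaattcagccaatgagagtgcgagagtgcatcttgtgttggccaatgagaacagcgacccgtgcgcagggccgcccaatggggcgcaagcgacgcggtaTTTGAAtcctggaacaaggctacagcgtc
CDC25C: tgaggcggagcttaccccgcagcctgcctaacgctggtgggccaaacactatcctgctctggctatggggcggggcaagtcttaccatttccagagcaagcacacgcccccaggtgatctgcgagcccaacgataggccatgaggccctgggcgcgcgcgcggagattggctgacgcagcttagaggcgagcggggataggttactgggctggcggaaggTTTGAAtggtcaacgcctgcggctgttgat
CCNB2 had 82.2, 78.6 and 80.4 CPM in vector control cells, 35.9, 38.3 and 38.5 CPM with the control shRNA and 59.5, 65.9 and 53.2 CPM after depletion. CDC25C had 23.2 ± 2.66, 11 ± 1.19 and 17.1 ± 0.386 CPM in vector control, shRNA control and depletion, so in both genes the depletion level stood between the controls. In windows from 250 bases before to 50 after the start, searched on both strands, 33 of the 46 list members with a promoter in the table held TTTGAA (71.7%), against 15.2% of all 35116 promoters and 14.5% of those of tested genes, and 36 held CCAAT (78.3%), against 34.6% and 42.0%. Over all genes placed between the controls and below the vector control, TTTGAA was found in 21.1%. The share was 13.5% between the controls and above the vector control, 17.6% and 16.8% in genes higher and lower than both, 13.5% and 13.7% in genes called against the vector control or the shRNA control alone, and 14.1% in genes called against neither. A match is a string of letters and not a measured binding site.

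Replication genes had the same order. Of 52 tested genes of replication and E2F targets 45 were lower and 0 higher than in the vector control (median -0.40), and 41 lay between the controls. Over reruns with other filters, methods or library sets, 35 to 46 were lower. Of all tested genes 18.6% were lower, 16.2% higher and 3.88% between the controls and below the vector control. E2F1, a transcription factor of the G1 to S transition, had 71.4 ± 14, 35.4 ± 1.48 and 48 ± 3.22 CPM in vector control, shRNA control and depletion, and MCM10, a replication initiation factor, 88.3 ± 3.64, 36.4 ± 1.75 and 55.4 ± 2.62 CPM. In the list of homologous recombination and Fanconi genes 21 of 35 were lower, 0 higher and 16 between. Over the same reruns 14 to 26 were lower and 0 to 1 higher. FANCI had 183 ± 6.25, 93.2 ± 5.34 and 132 ± 3.73 CPM and BRCA1 109 ± 3.3, 58.2 ± 3.21 and 72.9 ± 3.53 CPM. Replication-dependent histone genes, of which 21 of 49 passed the low-count filter, gave 18 lower, 0 higher and 15 between. Over the same reruns 14 to 18 were lower. H1-2, a linker histone, had 574 ± 62.3, 224 ± 19.1 and 361 ± 27.1 CPM. Counting may split or lose reads of near-identical histone copies.

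MYC and genes of ribosome production followed. MYC had 290.4, 293 and 335 CPM in vector control cells, 93.1, 97.3 and 103.5 CPM with the control shRNA and 153, 163 and 156 CPM after depletion. MYC fell to 0.515 of the vector control and was 1.61-fold over the shRNA control (edgeR adjusted p = 1.73e-08 and 1.78e-06), with no overlap between groups. Of 49 tested genes of the MYC network and its targets 41 were lower and 0 higher than in the vector control (median -0.49), and 31 lay between the controls. Of all tested genes 18.6% were lower, 16.2% higher and 3.88% between the controls and below the vector control. Those called against the vector control alone, in either direction, were 23.2%. NPM1, a nucleolar chaperone, had 1732 ± 58, 838 ± 44.6 and 1072 ± 80 CPM in vector control, shRNA control and depletion. Cytosolic ribosomal protein genes were lower in 77 of 78 (median -0.52), but here 45 were not called against the shRNA control and 32 lay between. That split rested on vector control replicate 3: without it 62 of 78 lay between. RPS3A, a small subunit protein, had 695 ± 58.8, 373 ± 12.7 and 346 ± 23.9 CPM in vector control, shRNA control and depletion, and depletion was not called against the shRNA control (edgeR adjusted p = 0.279).

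The integrated stress response list, which holds ATF4 and its targets in amino acid synthesis, uptake and transfer RNA charging, was split by its members. Of 33 tested genes 15 were lower and 3 higher than in the vector control (median -0.21), where 18.6% and 16.2% of all tested genes were, and 8 were lower without depletion replicate 3. Against the shRNA control 27 were higher and 0 lower (median 0.48), where 9.4% and 10.4% of all tested genes were. ATF4 had 484, 477 and 569 CPM in vector control cells, 249, 249 and 246 CPM with the control shRNA and 332, 362 and 314 CPM after depletion. ATF4 stood between the controls without overlap (log2 fold change -0.60 and 0.44, edgeR adjusted p = 5.8e-06 and 0.000306). For 14 members depletion was called against the shRNA control alone. ASNS, asparagine synthetase, is one: ASNS had 193, 184 and 189 CPM in vector control cells, 108, 109 and 107 CPM with the control shRNA and 194, 201 and 185 CPM after depletion. PSAT1, of serine synthesis, is another, with 305 ± 19.4, 165 ± 5.35 and 319.7 ± 1.79 CPM. For ASNS and PSAT1 the depletion libraries overlapped the vector control (95% intervals of the log2 difference -0.08 to 0.15 and -0.05 to 0.19, edgeR adjusted p = 0.661 and 0.394). CTH, of cysteine synthesis, and ALDH1L2, of mitochondrial folate metabolism, lay above both controls (1.38-fold and 3.1-fold over the vector control). Without vector control replicate 3, 6 members were higher than the vector control and 5 lay above both.

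**Figure D3:**
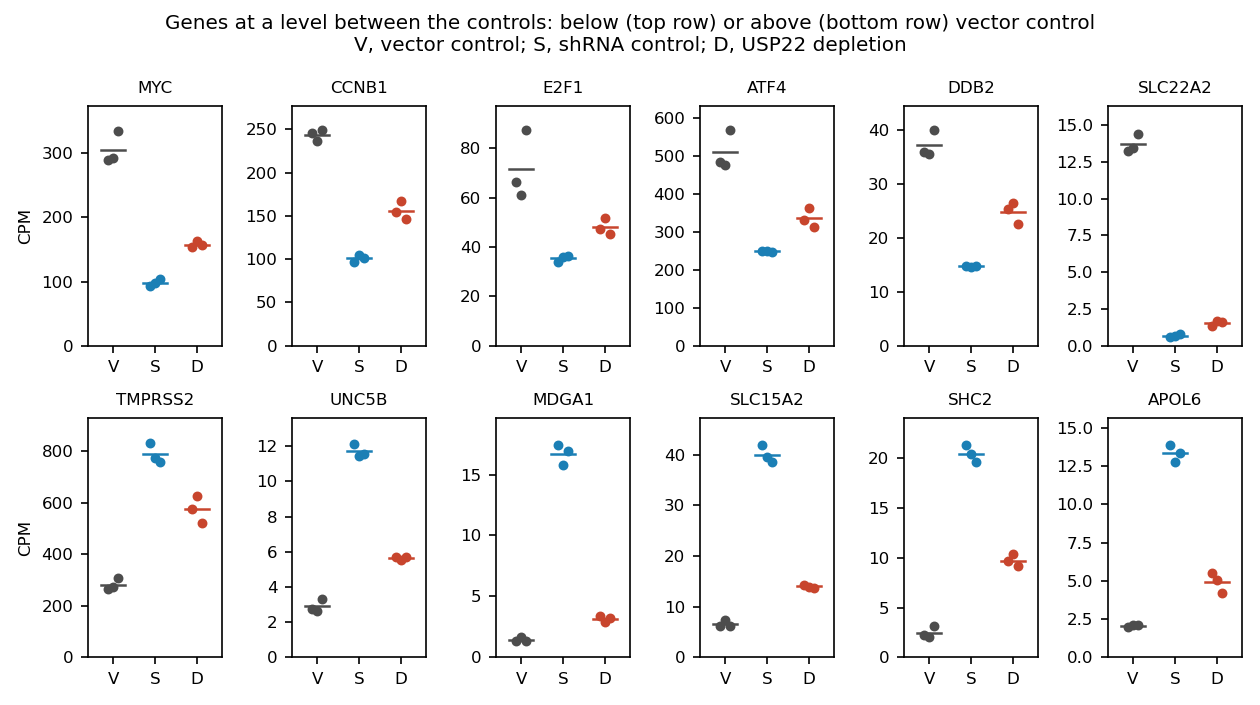
CPM on a linear axis from 0 in each library (points; V vector control, S shRNA control, D USP22 depletion) with the group mean (line) for 12 genes between the controls. In the top row depletion lies below the vector control and above the shRNA control, and in the bottom row the order is reversed; SLC22A2 and MDGA1 lie close to one control, while DDB2 and SHC2 lie nearer the middle.

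Interferon-stimulated genes were more often higher than lower against the vector control, and more often lower than higher against the shRNA control. Of 51 tested genes 25 were higher and 9 lower than in the vector control (median 0.34), where 16.2% and 18.6% of all tested genes were. Against the shRNA control 26 were lower and 2 higher (median -0.38), where 10.4% and 9.4% of all tested genes were. Between the controls, above the vector control, lay 13, where 2.44% of all tested genes did. DDX60 had 12.5, 10.5 and 9.25 CPM in vector control cells, 48.3, 46.9 and 43.1 CPM with the control shRNA and 30, 30.9 and 26.5 CPM after depletion. DDX60, an antiviral helicase, showed 3 separate levels (log2 fold change 1.44 and -0.66, edgeR adjusted p = 1.49e-08 and 8.89e-05). IFITM3, a membrane protein that blocks viral entry, had 23.7 ± 0.977, 57.1 ± 3.5 and 43.5 ± 1.85 CPM in vector control, shRNA control and depletion, and HLA-B, a class I antigen-presenting molecule, 26.3 ± 1.92, 87 ± 3.97 and 33.3 ± 1.75 CPM. IFIT2, an antiviral RNA-binding protein, rose most against the vector control. IFIT2 had 2.82, 3.22 and 2.95 CPM in vector control cells, 20.2, 19.9 and 19.4 CPM with the control shRNA and 24.7, 26.2 and 20.4 CPM after depletion. The IFIT2 libraries were 7.93-fold over the vector control (edgeR adjusted p = 4.19e-12). They were only 1.2-fold over the shRNA control (edgeR adjusted p = 0.048), a call lost without any 1 shRNA control (adjusted p = 0.0822, 0.0823 and 0.118) and without depletion replicate 1 or 2 (0.132 and 0.176).

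Some guanylate-binding proteins and antigen processing genes of that list were lower than in the vector control as well. Below both controls lay 7 of 51, where 3.54% of all tested genes did. GBP2 had 28.1, 27.9 and 30.5 CPM in vector control cells, 29, 28.4 and 25 CPM with the control shRNA and 5.33, 4.49 and 4.69 CPM after depletion. GBP2, an interferon-induced GTPase, was not called between the controls and fell to 0.168 of the vector control and 0.176 of the shRNA control (edgeR adjusted p = 5.98e-12 and 8.1e-11). GBP1 had 12.2, 13.4 and 11.7 CPM in vector control cells, 19.6, 22 and 20.3 CPM with the control shRNA and 4.53, 3.42 and 3.41 CPM after depletion. TAP1, the peptide transporter of antigen processing, fell to 0.608 of the vector control, and its depletion libraries, 20.8, 22.2 and 19.6 CPM, were all below the lowest control of 31.1 CPM. Immune markers were close to absent in all libraries, with 9 of 10 below 1 CPM and a summed level of 1.82 to 2.10 CPM after depletion and 1.89 to 2.23 CPM in vector controls.

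The promoters of GBP1, which fell, and DDX60, which stood between the controls, are shown to set the shared element beside unlike levels (chr1:89065209-89065458, minus strand, and chr4:168318753-168319002, minus strand, GRCh38.p14, RefSeq). Each run is the 250 bases before the annotated start, 5′ to 3′, with matches to the core of the interferon-stimulated response element, TTTC repeated after any 2 bases, in capitals on either strand (in DDX60 both read as the reverse complement), which begin 127 bases before the start in GBP1 and 88 and 53 bases before it in DDX60. These 2 were also chosen after their values were seen.
GBP1: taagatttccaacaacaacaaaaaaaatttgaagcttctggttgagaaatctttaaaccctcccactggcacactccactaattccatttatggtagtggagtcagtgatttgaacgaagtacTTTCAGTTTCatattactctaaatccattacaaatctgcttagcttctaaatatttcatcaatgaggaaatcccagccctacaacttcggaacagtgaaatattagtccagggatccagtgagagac
DDX60: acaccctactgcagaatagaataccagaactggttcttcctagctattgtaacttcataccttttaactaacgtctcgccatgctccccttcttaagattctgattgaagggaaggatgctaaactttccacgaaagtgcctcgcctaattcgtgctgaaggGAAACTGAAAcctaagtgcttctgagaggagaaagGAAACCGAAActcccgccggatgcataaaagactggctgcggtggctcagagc
Searched as above on both strands, this element was found in 28 of 39 list members with a promoter in the table (71.8%), against 3.57% of all promoters and 3.89% of those of tested genes.

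Some genes called between the controls lay close to one of them. SLC22A2 had 13.3, 13.4 and 14.4 CPM in vector control cells, 0.584, 0.653 and 0.779 CPM with the control shRNA and 1.31, 1.65 and 1.57 CPM after depletion. SLC22A2, an organic cation transporter, was 0.11 of the vector control and 2.25-fold over the shRNA control (edgeR adjusted p = 5.98e-12 and 1.24e-05), so the depletion level was nearer the shRNA control. MDGA1 had 1.35, 1.65 and 1.38 CPM in vector control cells, 17.4, 15.8 and 16.9 CPM with the control shRNA and 3.41, 2.9 and 3.22 CPM after depletion. MDGA1, a synaptic adhesion regulator, was nearer the vector control (2.18-fold over it and 0.19 of the shRNA control). SLC15A2, a peptide transporter, had 6.57 ± 0.637, 40 ± 1.81 and 14 ± 0.314 CPM in vector control, shRNA control and depletion, and SHC2, an adaptor protein, 2.46 ± 0.612, 20.4 ± 0.874 and 9.72 ± 0.627 CPM. Below the vector control, LPAL2, a pseudogene related to apolipoprotein(a) whose reads may be shared with its relatives, had 32 ± 2.24, 4.67 ± 0.735 and 8.12 ± 0.548 CPM, and TNFRSF19, a receptor of the tumour necrosis factor family, 65.8 ± 1.65, 14.2 ± 0.812 and 24.7 ± 2.74 CPM.

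Large differences from the vector control that were not called against the shRNA control concerned other genes. MIR196A2, a microRNA gene of the HOXC cluster, had 0 counts in each vector control library, 165, 173 and 169 CPM in the shRNA control and 157, 157 and 150.3 CPM after depletion. Against a floor of 3 counts over the vector control group, 0.0129 CPM, depletion was at least 12000-fold higher. The table counts reads at the gene, not the mature microRNA. SCD5, a stearoyl-CoA desaturase, had 4.25 ± 0.249, 30.7 ± 2.33 and 34.5 ± 2 CPM in vector control, shRNA control and depletion, and CADM2, an adhesion molecule, 0.734 ± 0.211, 7.24 ± 0.633 and 8.88 ± 1.01 CPM. THBS1, the matrix glycoprotein thrombospondin, fell from 118 ± 5.3 CPM to 26.7 ± 2.08 CPM with 29.8 ± 1.32 CPM in the shRNA control, and H2AJ, a histone variant, from 96.2 ± 19.4 to 20.9 ± 2 CPM with 20.4 ± 0.827 CPM there. The 95% intervals of the log2 difference from the shRNA control were -0.01 to 0.35 for SCD5, -0.30 to -0.01 for THBS1 and -0.20 to 0.27 for H2AJ. For CADM2 the interval was 0.03 to 0.56 (edgeR adjusted p = 0.123). The depletion libraries of CADM2, 9.68, 7.75 and 9.2 CPM, were all above its highest control library of 7.64 CPM.

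The reverse pattern, a level near the vector control and away from the shRNA control, was seen in the BMP-responsive genes ID1, ID2 and ID3. ID1 had 31.6, 33.2 and 37 CPM in vector control cells, 102, 109 and 97.2 CPM with the control shRNA and 30.4, 30.7 and 28.1 CPM after depletion. ID1, an inhibitor of helix-loop-helix factors, was not called against the vector control (log2 fold change -0.19, interval -0.35 to -0.03, edgeR adjusted p = 0.0604) and fell by 1.79 on the log2 scale against the shRNA control. ID2 had 22 ± 2.66, 45.1 ± 3.41 and 24.3 ± 0.559 CPM and ID3 42.6 ± 7.58, 89.7 ± 2.75 and 38 ± 3.38 CPM in vector control, shRNA control and depletion. Of 18 tested TGF beta and BMP targets 8 were called against the shRNA control alone, where 8.21% of all tested genes were. Against the vector control 5 were higher and 4 lower, where 16.2% and 18.6% of all tested genes were. Other members differed from this pattern. SMAD6, an inhibitor of BMP signalling, lay below both controls (log2 fold change -0.43 and -0.83), as did SMAD7 (-0.31 and -1.16), whose call against the vector control was lost without depletion replicate 3 (edgeR adjusted p = 0.0588) and reached 0.05 without depletion replicate 2. BAMBI, a decoy receptor, lay between the controls (-0.84 and 0.37). FGFR3, a growth factor receptor, and MMP16, a membrane metalloproteinase, were called against the shRNA control alone too. FGFR3 had 4.95 ± 1.06, 13.1 ± 0.953 and 4.3 ± 0.0712 CPM in vector control, shRNA control and depletion, and MMP16 148 ± 30.6, 68.2 ± 2.59 and 164 ± 5.96 CPM.

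Genes of the mitochondrial genome were higher than in the vector control in 7 of 13 cases and lower in 0 (median 0.44), where 16.2% and 18.6% of all tested genes were. The number called moved with single libraries: 2 were higher without depletion replicate 3, 11 without vector control replicate 1 and 8 without vector control replicate 3. MT-ND4, a subunit of complex I, had 433, 442 and 275 CPM in vector control cells, 476, 528 and 613 CPM with the control shRNA and 533, 529 and 705 CPM after depletion (edgeR adjusted p = 0.0042). The third vector control was the lowest of all 9 libraries. Mitochondrial reads were 0.691% of that library, 1.04% and 1.24% of the other vector controls and 1.27% to 1.53% of the depletion libraries. Without it the median was 0.21, and 4 of 13 lay above both controls in place of 1. Nuclear genes of the respiratory chain were lower in 28 of 58 and higher in 3 (median -0.18), against the same 18.6% and 16.2%. The number lower was 16 without depletion replicate 1 and 15 without depletion replicate 3, and the number higher 1 without depletion replicate 1 and 6 without vector control replicate 3. Nuclear copies of mitochondrial DNA can share reads with these genes.

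Glycolysis and hypoxia genes were lower in 18 of 31 and higher in 5 (median -0.28). CA12, a carbonic anhydrase, had 41.7 ± 0.887, 11.7 ± 0.586 and 14.3 ± 0.583 CPM in vector control, shRNA control and depletion, and ENO1, an enolase, 1620.2 ± 204, 767 ± 16.8 and 946 ± 62.7 CPM. ALDOC, 1 of the 5 higher members, had 27.1 ± 4.39, 87.9 ± 3.38 and 71 ± 7.58 CPM in the same order. Its call against the shRNA control (edgeR adjusted p = 0.0318) was lost without any 1 shRNA control. Cholesterol synthesis genes gave 8 lower and 3 higher of 24, nucleotide excision repair genes 5 and 4 of 24, unfolded protein response genes 1 and 4 of 23, and immediate early genes 7 and 3 of 24, where 18.6% of all tested genes were lower and 16.2% higher. Without vector control replicate 3, 8 repair genes were lower, 7 unfolded protein response genes higher and 5 immediate early genes higher. Cholesterol genes that were lower numbered 3 to 5 without depletion replicate 1 or 3 or any 1 shRNA control. Clustered protocadherins gave 13 lower and 16 higher of 44 tested of 52. All 11 of them that lay below both controls were of the gamma cluster, such as PCDHGA4 (7.58 ± 0.0734, 6.13 ± 0.0411 and 4.49 ± 0.27 CPM), whose members share 3′ exons, so their reads cannot be fully assigned.

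**Figure D4:**
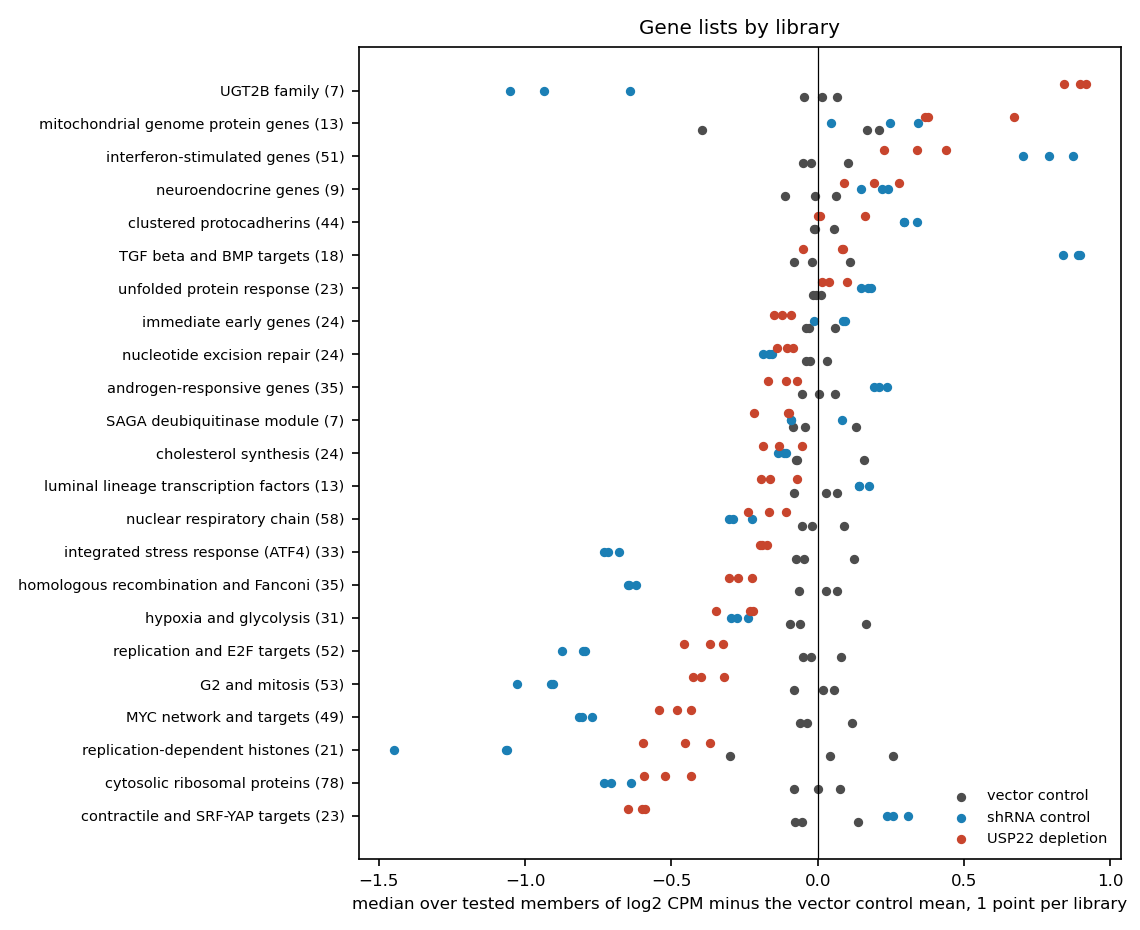
For each of 23 gene lists (number of tested members in brackets), the median over members of the log2 CPM difference from the vector control mean, 1 point for each library of the 3 groups. Depletion points lie between the controls for G2 and mitosis, replication and MYC lists, below both for contractile genes and above both for the UGT2B family; 1 vector control lies apart for the mitochondrial genome.

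**Figure D5:**
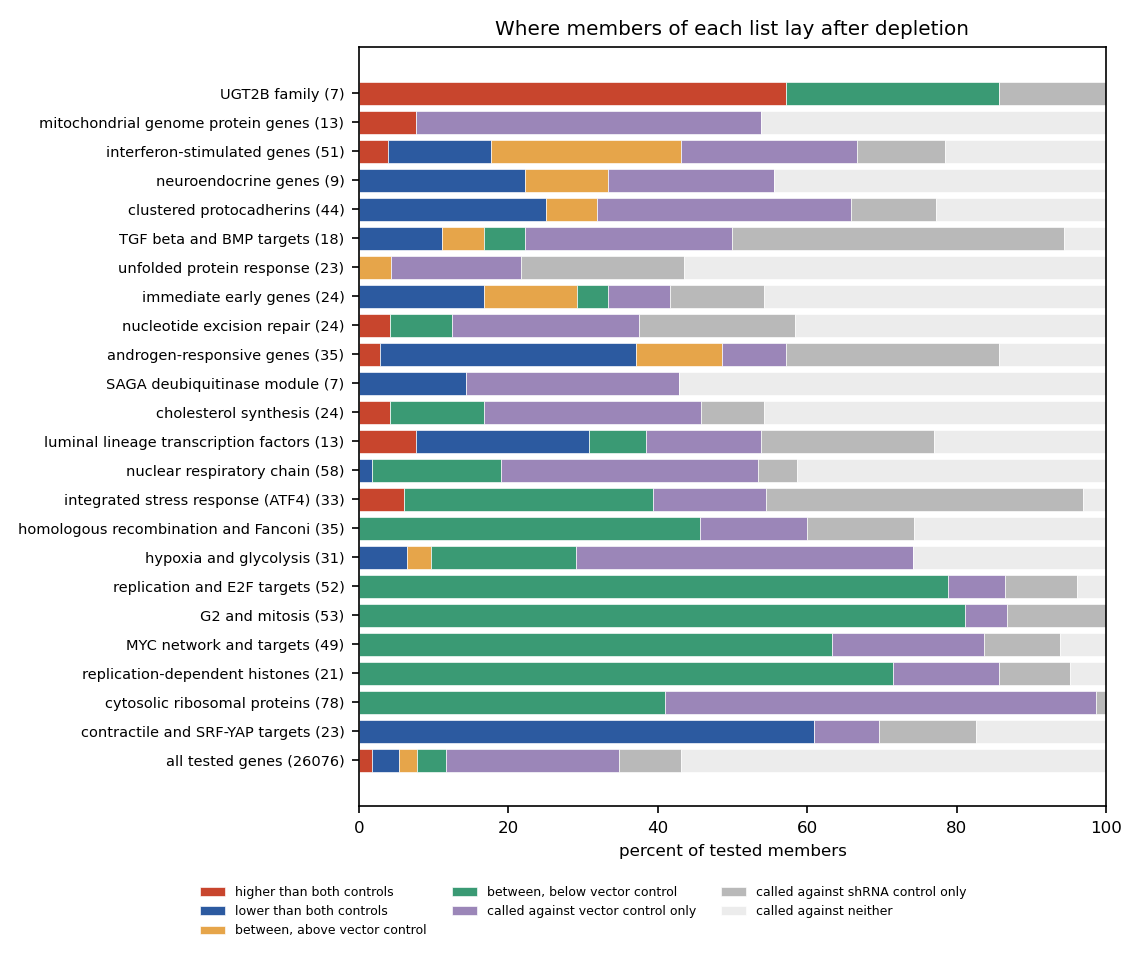
Bars give the percentage of the tested members of each list that lay outside both controls, between them, or were called against 1 control or neither, with all 26076 tested genes at the bottom. Genes between the controls and below the vector control take 43 of 53 members of the G2 and mitosis list, and genes below both take 14 of 23 contractile members.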

How the data were processed

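RNA was sequenced from 12 LNCaP libraries in 4 groups of 3, and the table deposited by the authors holds raw read counts per gene, whole numbers with no normalization. The build hg19, the aligner STAR 2.5.2a, the read counter featureCounts 1.5.0-p3 and DESeq2 1.14.1 are named, without their settings, per the submitters' processing notes. Annotation release and strand setting: not given in the sources used here. Reads of overlapping or antisense genes can therefore not be told apart. IDs were given symbols from a gene name table (80.1% of tested genes).

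The counts were filtered with filterByExpr, scaled by TMM and fitted in edgeR 4.0.16 (quasi-likelihood, R 4.3.3) over all 12 libraries, which share 1 estimate of spread with 8 residual degrees of freedom. Contrasts of depletion with each control were adjusted by Benjamini-Hochberg over 26076 genes, at a threshold of 0.05. Members and gene lists were chosen with earlier results of these data known, so 24 pathway lists and 5 marker lists (788 of 858 entries tested) are described by counts and medians without a test. Genes were named from preset symbols, from the largest differences in each class (mean of at least 5 CPM), and from the 3 smallest p-values of each list. Outside that rule, ASNS, CCNB2, CDC25C, CTH, DDX60, FLNA, GDF15, GRHL2, HLA-B, ID2, ID3, IFITM3, KLK2, MYH9, NDRG1, PGC, PSAT1, RHOU, SMAD6, SMAD7, SPDEF, TAP1, TPM4 and UGT2B10 were chosen after their values were seen. Printed CPM use TMM-scaled library sizes. Promoter windows came from RefSeq (GRCh38.p14), a later build than the counts, and were matched by symbol.

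In 3 simulations of 26076 genes with 200 changed, the depletion contrast found 14.7% of genes changed 1.25-fold, 44.7% at 1.5-fold, 68% at 2-fold and 86.7% at 4-fold, and 6.41% of its calls were false. Of 300 genes simulated outside both controls 150 were placed there, and of 300 simulated between them 138. Fewer genes changed in the simulations than were called in the data. Alternatives were RLE size factors, the test of DESeq2 1.42.0, limma 3.58.1 voom, other filters, thresholds and library sets, a replicate block, and each replicate left out. Fits with protein-coding genes alone, and with 9 libraries less the third vector control, were added after seeing the data. The overexpression libraries entered the fit only and are not described. Some genes and 1 list are not reported here.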

Additional observations from a re-analysis of the deposited data

How the results depend on the processing

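Depletion and vector control differed at 7920 to 9565 genes under RLE size factors, DESeq2, voom, no filter, a strict filter, the 9 libraries of the 3 groups, a replicate block or the 20 most abundant genes left out, against 9081, and 6535 in a fit of just the 6 libraries. Without a filter 55.4% of these were higher, against 46.6%, and 44.8% of the genes outside both controls, against 33.1%. Leaving out 1 library gave 7328 to 10422 genes changed, 965 to 2147 outside both controls and 1041 to 3096 between them, and a USP22 log2 fold change of -1.04 to -0.92. The lowest between count, 1041, came without depletion replicate 1, and the highest counts came without vector control replicate 3 (2147 outside, 3096 between). The 9 libraries less that control gave 2108 outside and 3071 between. At an adjusted p under 0.01, 774 genes were outside and 854 between, fewer by construction. Likewise a 2-fold minimum left 2207 changed, 295 outside and 64 between (54 above and 10 below the vector control), and USP22 at -0.992 missed it.

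Replicate numbers did not clearly pair the samples. Same-numbered vector control and depletion libraries had correlations of their deviations of 0.226, -0.092 and 0.0191. For vector control and shRNA control they were 0.0524, 0.0289 and 0.136, and for shRNA control and depletion -0.0294, 0.113 and 0.133. Libraries of different numbers had -0.182 to 0.136. A replicate block gave 9265 genes changed, 1414 outside and 1734 between. Of the values for single genes, 0 reversed, 306 lost and 57 gained a call and 7033 stayed called or stayed not called. The 306 include calls ended by the 2-fold minimum or the adjusted p under 0.01, fewer by construction. List medians that changed sign were those of protocadherins (-0.266 to 0.150, with 7 to 17 called higher), TGF beta targets (-0.011 to 0.159) and immune markers (-0.176 to 0.190). For other cases above the cause was not tested. In the simulations, where 200 of 26076 genes changed, most changes of 1.5-fold or less were missed. The data had 9081 called genes, so the simulated shares need not hold for them.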

Other observations

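Called genes of every set were more abundant and more often protein-coding than genes called against neither control. Of tested genes with an annotated type, 59.8% were protein-coding, against 81.7% of those higher and 80.6% of those lower than both controls, and 91.5% and 93.6% of those between, above and below the vector control. The median level was 2.21 CPM over all tested genes, 7.04 and 16.2 CPM in the higher and lower outside sets, and 14.5 and 53.5 CPM in the between sets above and below the vector control. Genes called against the vector control alone were 75.2% protein-coding with a median of 10 CPM, those called against the shRNA control alone 77% with 14.4 CPM, and those called against neither 44.9% with 0.618 CPM. The median log2 difference from the vector control was 0.69 and -0.60 in the outside sets and 0.58 and -0.41 in the between sets, in the same order. These sizes follow in part from how the sets were defined, and the part of abundance in membership was not tested.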
